A study of Mus musculus with 12 samples.

Results

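Genes were sought whose liver transcript level differed between Bmal1 knockout (KO) and wild-type (WT) mice by the same amount at both circadian times sampled. A gene was taken as constant when each of the 3 KO samples lay on the same side of each of the 3 WT samples at circadian time 0 h (CT0), when the same held in the same direction at 12 h (CT12), and when the KO minus WT differences of the mean log2(RPKM + 1) at CT0 and CT12 lay within 0.5 of each other. RPKM are reads scaled to the length of a transcript and to the depth of the library. Of 22322 gene symbols, 759 met this rule. Genes were kept for tests when the mean of any of the 4 groups reached 1 RPKM. This level filter was passed by 693 of the 759 and by 10799 gene symbols in all. The rule read the genotype difference itself, so the constant genes are described here with their values and errors, and no p-value is given for their genotype difference. By the rule, KO and WT samples of each constant gene do not overlap within a time, so this separation, where described, is no evidence.

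The data held 12 sequenced liver samples, 3 in each of 4 groups, which were WT and KO at CT0 and WT and KO at CT12. All came from male C57BL/6 mice (on a C57BL/6J background, by the study's methods) aged 8 weeks, held in constant darkness at the end. WT mice were Bmal1 flox/flox, and KO mice carried in addition CRE recombinase under a liver-specific promoter, which removes exons for the basic helix-loop-helix domain of BMAL1 in the liver. The floxed allele was thus shared by all groups. CRE is mentioned for KO mice only, so an effect of the recombinase cannot be told apart from one of losing Bmal1. The treatment label speaks of fewer mice per genotype and time than there are samples, while the study's methods give 3, so it is unresolved whether all replicates are separate mice, and p-values measure the spread between these samples. RNA was taken from whole liver. Fewer cells of a type and less RNA per cell cannot be told apart in such samples.

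BMAL1, the product of Arntl, pairs with CLOCK on E-box elements in DNA and switches on the Period and Cryptochrome genes, whose proteins then inhibit the pair. REV-ERB and ROR receptors and the D-box binding PAR bZIP factors form further loops, and together these factors drive daily rhythms in many liver genes of lipid, cholesterol and drug metabolism. A gene whose transcript differs equally at opposite ends of the day may be rhythmic or flat, since 2 times cannot trace a rhythm.

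Promoter sequence is shown for 5 constant genes that return below, namely Cry1, which was higher in KO, and Alb, Ces1b, Ces1e and Ces1g, which were lower in KO and hold a D-box sequence near their start. Each run of 120 bases lies upstream of the start site that RefSeq gives on the GRCm38.p6 build, is written 5′ to 3′ on the strand of the gene, and has E-box (CACGTG) or D-box (TTATGTAA or its reverse complement) letters in capitals. The Cry1 run is chr10:85185055-85185174 on the minus strand, with its E-box starting 60 bases before the gene's start. The Alb run is chr5:90460620-90460739 on the plus strand and ends 131 bases before the start. Those of the carboxylesterases lie on the minus strand at chr8:93079941-93080060 for Ces1b, chr8:93229620-93229739 for Ces1e and chr8:93337340-93337459 for Ces1g, the last of which also ends 131 bases before the start.
Cry1: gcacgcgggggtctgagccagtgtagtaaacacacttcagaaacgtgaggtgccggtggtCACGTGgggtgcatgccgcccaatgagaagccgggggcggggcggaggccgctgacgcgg
Alb: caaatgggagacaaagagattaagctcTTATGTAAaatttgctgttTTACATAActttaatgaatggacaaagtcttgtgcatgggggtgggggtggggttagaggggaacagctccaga
Ces1b: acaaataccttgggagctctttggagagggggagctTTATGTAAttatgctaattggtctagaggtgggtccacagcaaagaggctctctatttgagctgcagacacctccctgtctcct
Ces1e: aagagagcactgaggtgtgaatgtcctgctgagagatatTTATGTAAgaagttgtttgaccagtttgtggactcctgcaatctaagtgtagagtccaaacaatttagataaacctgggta
Ces1g: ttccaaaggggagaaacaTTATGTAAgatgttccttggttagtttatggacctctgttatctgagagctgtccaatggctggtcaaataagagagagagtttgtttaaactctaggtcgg

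The depth recovered from the steps between low RPKM values was 11460000 to 19000000 reads per sample, with 16900000 to 19000000 in WT at CT0 and 11460000 to 16110000 in the other groups. The labels give no sequencing batch. The targeted gene did not meet the rule. Arntl was at 16.3, 15.7 and 15.7 RPKM in WT and 5.91, 5.73 and 7.45 RPKM in KO at CT0, and 1.26, 0.68 and 1.21 RPKM in WT and 4.37, 3.59 and 4.01 RPKM in KO at CT12. KO samples lay below all WT samples at CT0 and above all of them at CT12, with differences of -1.21 and 1.29. The RPKM cover kept and deleted exons together and WT Arntl was near 1 RPKM at CT12, so the values bear on the genotype labels at CT0 only. Arntl is 1 of 117 tested genes that were separated at both times in opposite directions. The Y-linked genes Ddx3y, Eif2s3y, Kdm5d and Uty were detected in all 12 samples.

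Of the 693 constant genes that passed the filter, 472 were higher in KO and 221 were lower. These are 6.42% of tested genes, with 4.37% higher and 2.05% lower. The split depends on the scaling. After quantile normalization 659 genes met the rule, 52.8% of them higher in KO against 68.1% before, and 531 genes were shared with the 693. No constant gene changed sign under it, Alb having no value there, and 220 of the 239 genes with a difference of at least 0.5 on the log2 scale still met the rule, 122 higher and 98 lower. Differences were mostly modest. Their median size was 0.39 on the log2 scale, 539 reached 0.25, 58 reached 1 (33 higher, 25 lower) and 9 reached 2 (7 higher, 2 lower). The median genotype difference of all tested genes was 0.04.

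**Figure D1:**
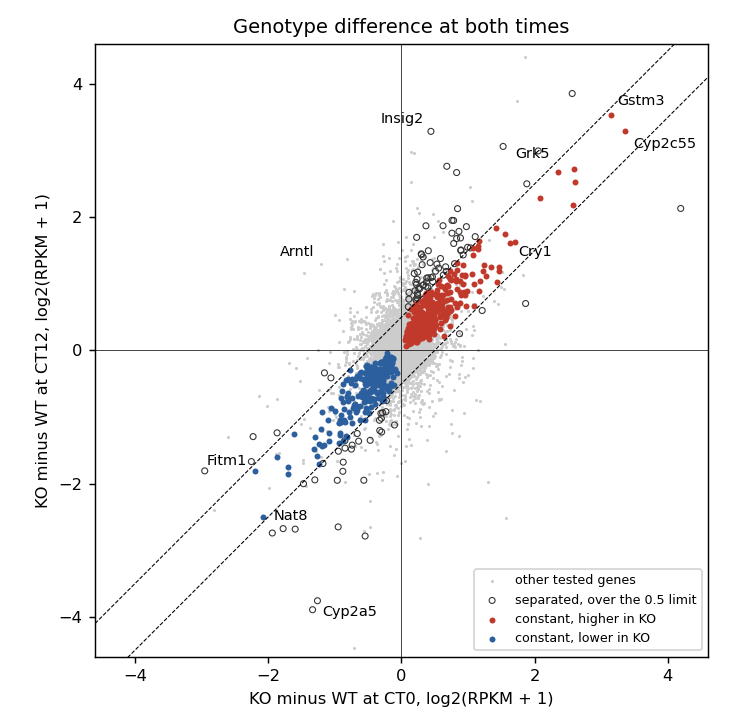
KO minus WT difference of mean log2(RPKM + 1) for each tested gene at CT0 (horizontal) and CT12 (vertical). Filled points are the 472 constant genes higher and the 221 lower in KO, open circles the 106 genes separated in the same direction but over the limit of 0.5 (dashed lines), and grey points the other tested genes. Gstm3 and Cyp2c55 stand at the upper right end, Nat8 and Fitm1 at the lower left end, and Arntl off the diagonal.

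In the model with genotype and time as terms (limma), 1034 of the tested genes, or 9.57%, were called at an adjusted p under 0.05, with 6.07% higher and 3.5% lower in KO. Of the constant genes 561, or 81.0%, were among them, which is 54.3% of all calls. The rule used the same contrast, so nothing is read from this overlap. Among tested genes, 799 were separated in the same direction at both times, and 106 of these were left out for differences more than 0.5 apart. Just inside the limit stood Arhgap18, with 0.37 at CT0 and 0.86 at CT12, and Mgll, the monoglyceride lipase, with -0.55 and -1.04. Just outside stood F2r, with 0.63 and 1.13, and Smo, with 0.80 and 1.30. The 66 constant genes below the filter, 43 of them higher in KO, had a median size of 0.216 and a largest size of 0.793.

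On the log2(RPKM + 1) scale the largest constant differences above WT were in detoxification genes. This order depends on the added 1 RPKM, since Ntrk2, described below, was at 4.05 with 0.1 added instead. Glutathione transferases couple glutathione to reactive compounds, and all 7 Gstm genes of one run of neighbouring tested genes on chromosome 3 (chr3:107698739-107847812, NCBIM37) were constant and higher in KO. Gene positions are given on NCBIM37, the mouse build also named mm9. Gstm3 (ENSMUSG00000004038, chr3:107745251-107772201) was at 37.02, 44.9 and 35.9 RPKM in WT and 540.5, 184 and 443 RPKM in KO at CT0, and 28.99, 32.5 and 15.3 RPKM in WT and 257, 426 and 233 RPKM in KO at CT12. The lowest KO sample at CT0 was 184 RPKM, above every WT sample, and the mean of the 6 KO samples was 10.7 times that of the 6 WT samples, a difference of 3.34 ± 0.26 (standard error) on the log2(RPKM + 1) scale. Gstm2 was at 52.5, 50.7 and 48.7 RPKM in WT and 398, 200.9 and 375 RPKM in KO at CT0, and 41.9, 25.8 and 33.3 RPKM in WT and 206, 249 and 216 RPKM in KO at CT12, and differed by 2.66 ± 0.16. The spread within KO at CT0 was wide in both genes, with replicate 2 lowest.

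The other members of the cluster followed at smaller size. Gstm6 was at 82.2, 77.98 and 86.4 RPKM in WT and 335, 229.5 and 254 RPKM in KO at CT0, and 66.5, 60.2 and 53.98 RPKM in WT and 182, 199 and 184 RPKM in KO at CT12, a difference of 1.67 ± 0.09. Gstm1, the most abundant of the 7, was at 997, 1276 and 1086 RPKM in WT and 2360.1, 2447 and 3126 RPKM in KO at CT0, and 1098, 1074 and 910.0 RPKM in WT and 2272, 2702 and 2512 RPKM in KO at CT12. Its difference was 1.24 at CT0 and 1.28 at CT12, one of the 5 closest matches between times among constant genes of size 1 or more. Gstm7 differed by 0.96 ± 0.11, Gstm4 by 0.58 ± 0.11 and Gstm5 by 0.53 ± 0.11. These paralogs are similar in sequence, and how the authors assigned reads that match several of them is not given, so their values are not certain to be separate. Within the run the differences were largest in Gstm3 and Gstm2 and smallest in Gstm4 and Gstm5.

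The 3 constant transferases lower in KO were Gsta2, Gsta3 and Mgst3. Gsta2 was at 10.9, 14.4 and 13.1 RPKM in WT and 4.55, 4.198 and 6.52 RPKM in KO at CT0, and 24.5, 9.39 and 23.7 RPKM in WT and 4.22, 6.77 and 7.15 RPKM in KO at CT12, with every KO sample below every WT sample within each time, and differed by -1.31 ± 0.21. Gsta3, an abundant alpha-class enzyme, differed by -0.57 ± 0.10 and the microsomal Mgst3 by -0.76 ± 0.13. In the whole list of 21 tested glutathione transferases, 7 were constant and higher, 3 constant and lower, and limma called 7 higher and 5 lower, with a list median of -0.03. The other microsomal transferase tested, Mgst1, was at -0.03 and was not called (limma adjusted p = 0.87).

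Cytochrome P450 enzymes oxidise drugs, steroids and fatty acids, and 13 of 40 tested members of families 1 to 3 were constant, 9 higher and 4 lower in KO. Cyp2c55 (ENSMUSG00000025002, chr19:39081509-39117183) was at 2.41, 3.93 and 3.56 RPKM in WT and 54.4, 43.3 and 32.5 RPKM in KO at CT0, and 3.98, 4.92 and 1.49 RPKM in WT and 32.4, 46.5 and 42.8 RPKM in KO at CT12. All KO samples were at or above 32.4 RPKM and all WT samples below 5 RPKM, a ratio of means of 12.4 and a difference of 3.33 ± 0.20. Cyp2b10, the classical target of the xenobiotic receptor CAR, was at 0.987, 3.98 and 1.07 RPKM in WT and 24.1, 12.9 and 11.3 RPKM in KO at CT0, and 1.84, 0.598 and 3.85 RPKM in WT and 11.5, 6.76 and 20.4 RPKM in KO at CT12. Its KO samples varied from 6.76 to 24.1 RPKM, and it differed by 2.38 ± 0.33.

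Cyp2c29, a highly expressed P450, was at 714, 885 and 749.7 RPKM in WT and 2649, 1966 and 1785 RPKM in KO at CT0, and 831, 590.5 and 654 RPKM in WT and 1581, 1239.7 and 1366 RPKM in KO at CT12, and differed by 1.43 at CT0 and 1.02 at CT12. Cyp3a59 differed by 1.36 ± 0.18, Cyp2c68 by 0.76 ± 0.16, Cyp2c70 by 0.59 ± 0.12 and Cyp2j6 by 0.58 ± 0.08. Cyp2r1, a vitamin D 25-hydroxylase, differed by 0.46 ± 0.08, and Cyp2d22 by 0.29 ± 0.06. The 4 constant members lower in KO were Cyp2d40 at -1.39, Cyp2c44 at -0.69, Cyp3a13 at -0.49 and Cyp2d26 at -0.39. Cyp2d40 had the largest difference of these, at 40.6, 34.9 and 49.5 against 21.9, 13.2 and 14.4 RPKM at CT0 and 30.5, 39.5 and 28.3 against 10.99, 10.5 and 11.6 RPKM at CT12, where WT is set against KO, as in all such pairs here. In the list limma called 11 higher and 8 lower, and the list median was 0.18. The Cyp2c and Cyp2d genes also have close paralogs.

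Several other genes far above WT lay outside metabolism. Ntrk2 (ENSMUSG00000055254, chr13:58907957-59235331), which encodes the receptor for brain-derived neurotrophic factor, was nearly undetected in WT, at 0.741, 0.345 and 0.127 RPKM in WT and 5.93, 3.72 and 5.03 RPKM in KO at CT0, and 0.0354, 0.136 and 0.0745 RPKM in WT and 3.66, 5.05 and 4.24 RPKM in KO at CT12. In reads this was 4 to 98 in WT and 369 to 619 in KO samples, and the ratio of means was 18.9. Its difference of 2.18 ± 0.13 is understated by the added 1 RPKM, and it was 4.05 with 0.1 added instead. Grk5, a kinase that desensitises G protein-coupled receptors, was at 4.25, 3.56 and 3.52 RPKM in WT and 25.6, 21.9 and 22.7 RPKM in KO at CT0, and 1.06, 0.516 and 0.848 RPKM in WT and 8.06, 11.8 and 12.2 RPKM in KO at CT12. WT and KO were far apart at both times while both were lower at CT12, and the genotype difference was 2.35 at CT0 and 2.68 at CT12.

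Serpina12, which encodes the adipokine vaspin, was at 5.52, 3.49 and 6.16 RPKM in WT and 35.1, 32.2 and 37.9 RPKM in KO at CT0, and 3.11, 8.82 and 1.11 RPKM in WT and 30.6, 26.3 and 18.1 RPKM in KO at CT12. KO samples all exceeded WT samples, with the widest WT spread at CT12, and the difference was 2.57 ± 0.29. Gas7, at 1.62, and Ly6e, a GPI-anchored surface protein, at 1.40, followed. Ly6e was at 123, 84.3 and 91.6 against 238, 215 and 212 RPKM at CT0 and 59.3, 70.7 and 45.7 against 172, 177 and 197 RPKM at CT12 (WT against KO). Ly6e lay in a run of 3 neighbouring tested genes, Ly6d, Ly6e and Ly6a, that were all constant and higher (chr15:74592486-74828064, NCBIM37). A second such run on chromosome 7 held Uros, Bccip and Dhx32 (chr7:140877926-140974409). The transcript 1700010I14Rik was at 0.714, 0.936 and 0.351 against 3.04, 3.03 and 2.54 RPKM at CT0 and 0.201, 0.1102 and 0.161 against 2.13, 1.1 and 1.82 RPKM at CT12 and was among the 5 with the closest differences, 1.23 and 1.19.

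**Figure D2:**
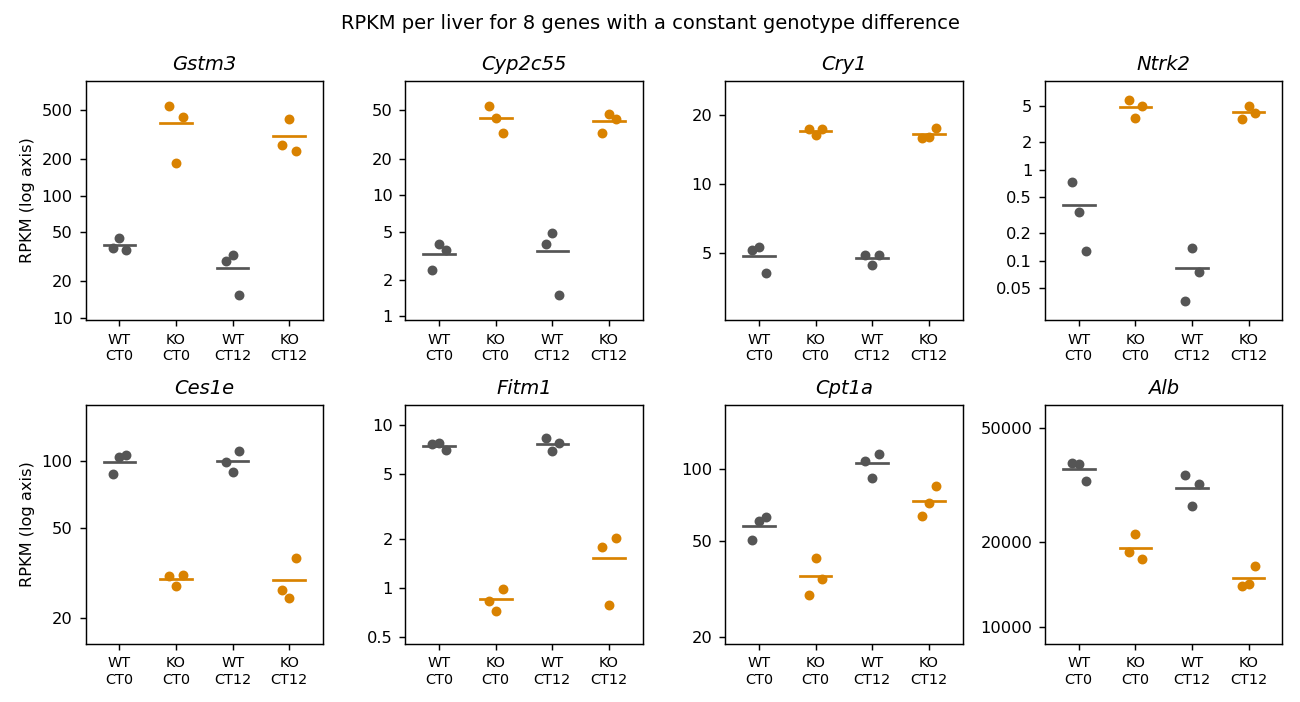
RPKM (log axis) of 8 constant genes in each of the 12 liver samples, by genotype and circadian time. Points are single samples and lines group means (n = 3). KO points (orange) lie above all WT points (grey) of the same time for Gstm3, Cyp2c55, Cry1 and Ntrk2 and below them for Ces1e, Fitm1, Cpt1a and Alb.

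Of the 23 tested circadian clock genes, 2 were constant. At the share of 6.42% over all tested genes, a list of this size would hold few. Cry1 (ENSMUSG00000020038, chr10:84594447-84647799) encodes a repressor of the CLOCK and BMAL1 pair, and its transcript was at 5.16, 5.32 and 4.06 RPKM in WT and 17.4, 16.5 and 17.5 RPKM in KO at CT0, and 4.895, 4.41 and 4.898 RPKM in WT and 15.99, 16.04 and 17.7 RPKM in KO at CT12. The 6 KO samples were between 15.99 and 17.7 RPKM and the 6 WT samples between 4.06 and 5.32 RPKM, so that the groups were far apart and each was tight. The difference was 1.63 ± 0.07, with 1.64 at CT0 and 1.62 at CT12. The change of the difference between times was -0.02, with a 95% interval from -0.32 to 0.28, narrower than for the other 11 of the 12 genes furthest above WT. WT Cry1 samples of CT0 and CT12 overlapped, and the time difference over both genotypes was -0.03 (limma adjusted p = 0.78).

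Csnk1d, the kinase that marks Period proteins for decay, was the other, at 20.2, 19.8 and 19.6 against 21.5, 20.9 and 23.3 RPKM at CT0 and 15.5, 19.2 and 18.4 against 23.2, 22.02 and 23.4 RPKM at CT12 (WT against KO). Its difference was small, 0.13 at CT0 and 0.35 at CT12. Of the list, limma called 5 genes higher and 2 lower in KO, and the list median was 0.08.

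Many genes of sterol synthesis were higher in KO. Of 25 tested genes of cholesterol synthesis and uptake, 14 rose and none fell by limma, the list median was 0.53 against 0.04 for all tested genes, and 5 were constant. The 5 were Lss, lanosterol synthase, Fdps, which makes farnesyl diphosphate, Sqle, the squalene epoxidase, Idi1, the isopentenyl diphosphate isomerase, and the sterol reductase Tm7sf2. Lss was at 19.8, 26.2 and 24.95 RPKM in WT and 61.9, 29.9 and 40.5 RPKM in KO at CT0, and 14.3, 22.7 and 16.4 RPKM in WT and 46.7, 39.8 and 27.3 RPKM in KO at CT12. The highest KO samples were replicate 1 of each time, and the lowest KO sample was above the highest WT sample within each time. Fdps was at 221, 247 and 283 RPKM in WT and 676, 294 and 409 RPKM in KO at CT0, and 149, 216 and 145 RPKM in WT and 374, 242 and 229.6 RPKM in KO at CT12, and the same sample, KO replicate 1 at CT0, stood out at 676 RPKM. The differences were 0.93 ± 0.18 for Lss, 0.76 ± 0.19 for Fdps, 0.72 ± 0.16 for Sqle, 0.70 ± 0.12 for Idi1 and 0.45 ± 0.10 for Tm7sf2. Without that sample the 5 differences ran from 0.40 for Tm7sf2 to 0.82 for Lss. Scd2, a stearoyl-CoA desaturase, was the single constant gene among 24 tested genes of fatty acid synthesis, at 1.39, 1.85 and 2.14 against 5.56, 4.78 and 5.503 RPKM at CT0 and 1.08, 1.41 and 0.834 against 2.77, 4.86 and 2.604 RPKM at CT12, where limma called 1 higher and 1 lower.

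Of 37 tested amino acid genes 8 were constant, and 6 of these were higher in KO, near the share of 68.1% over all constant genes, with 10 limma calls higher and 2 lower. Oat, ornithine aminotransferase, was at 409, 304 and 265 RPKM in WT and 782, 412 and 574 RPKM in KO at CT0, and 387, 228 and 445 RPKM in WT and 591, 774 and 576 RPKM in KO at CT12, and differed by 0.87 ± 0.19. WT samples were spread widely at CT12, from 228 to 445 RPKM, and the lowest KO sample there was 576 RPKM. Kynu, kynureninase of the tryptophan pathway, was at 98.4, 99 and 106 against 199, 132 and 151 RPKM at CT0 and 65.7, 58.2 and 55.9 against 122, 111 and 117 RPKM at CT12 and differed by 0.80 ± 0.10. Ass1, argininosuccinate synthase of the urea cycle, differed by 0.62 ± 0.12, the mitochondrial ornithine carrier Slc25a15 by 0.49 ± 0.09, Dmgdh, dimethylglycine dehydrogenase, by 0.59 ± 0.09 and urocanase Uroc1 by 0.22 ± 0.07. Lower were Ahcy, which hydrolyses S-adenosylhomocysteine, at -0.70, and Sardh, sarcosine dehydrogenase, at -0.20. Thus Dmgdh and Sardh, which act one after the other on choline breakdown products, differed in opposite directions.

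Among 26 tested lipoprotein genes, 4 were constant and higher and 1 lower, while limma called 5 higher and 4 lower. Hepatic lipase Lipc was at 65.1, 73.1 and 83.6 against 109, 142 and 118 RPKM at CT0 and 60.7, 64.9 and 63.7 against 91.6, 95.3 and 115 RPKM at CT12 and differed by 0.69 ± 0.09. Apoh, Apoc3 and Apoa2 differed by 0.45, 0.33 and 0.29, and the sphingosine-1-phosphate carrier Apom by -0.36. Apoa2 was 0.18 after quantile normalization. Glycogen phosphorylase Pygl, at 0.33, and Pgm1, at 0.35, were the constant genes of 26 in the list of glucose and glycogen metabolism. Limma called 1 gene of that list higher and 1 lower. The Pgm1 row is ENSMUSG00000029171 on chromosome 5, with group means of 1.71 to 2.76 RPKM. It entered the list by its symbol, and its place in glycogen metabolism was not checked. In bile acid synthesis, Akr1c6 was higher by 0.15 and the peroxisomal Hsd17b4 lower, at -0.41, among 19. Limma called none of these 19 higher and 1 lower.

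Of the constant genes, Nat8 and Fitm1 lay furthest below WT. Nat8 (ENSMUSG00000030004, chr6:85780382-85782076), an acetyltransferase that completes mercapturic acids from glutathione conjugates, was at 3.86, 5.57 and 3.53 RPKM in WT and 0.179, 0.188 and 0.388 RPKM in KO at CT0, and 8.34, 5.52 and 5.25 RPKM in WT and 0.124, 0.135 and 0.652 RPKM in KO at CT12. This rested on 2 to 10 reads per KO sample and 67 to 151 per WT sample, a ratio of WT to KO means of 19.3. The difference was -2.29 ± 0.15 with 1 RPKM added and -3.95 with 0.1. Fitm1 (ENSMUSG00000022215, chr14:56194511-56195789), which partitions fat into lipid droplets, was at 7.65, 7.76 and 7.02 RPKM in WT and 0.831, 0.725 and 0.9903 RPKM in KO at CT0, and 8.38, 6.96 and 7.85 RPKM in WT and 1.79, 0.779 and 2.04 RPKM in KO at CT12, and differed by -2.01 ± 0.13. No KO sample exceeded 2.04 RPKM and no WT sample was under 6.96 RPKM.

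Carboxylesterases hydrolyse lipid esters and ester drugs. Of 13 tested carboxylesterases, Ces1b, Ces1e, Ces1f and Ces1g were constant, all 4 lower, and limma called 1 higher and 5 lower with a list median of -0.23. Ces1e was at 87.4, 104 and 106 RPKM in WT and 30.7, 27.6 and 30.9 RPKM in KO at CT0, and 99.1, 88.8 and 111 RPKM in WT and 26.6, 24.5 and 36.9 RPKM in KO at CT12. WT was near 100 RPKM and KO near 30 RPKM at both times, a difference of -1.72 ± 0.10 with -1.70 at CT0 and -1.75 at CT12. Ces1b (ENSMUSG00000078964, chr8:95580626-95603916) was at 28.2, 32.4 and 39.3 RPKM in WT and 6.35, 9.19 and 14.1 RPKM in KO at CT0, and 39.5, 29.9 and 45.2 RPKM in WT and 5.72, 14.9 and 10.4 RPKM in KO at CT12, and differed by -1.78 ± 0.21. Ces1f differed by -1.06 ± 0.08 and Ces1g, which is known to act on hepatic triglyceride, by -0.99 ± 0.14. Ces1c was at -0.23 and was not called (limma adjusted p = 0.075). These genes are neighbouring paralogs, so their reads may not be fully separate.

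Many targets of PPAR-alpha, the fatty acid receptor that drives fat oxidation, were also lower. Of 32 tested genes of the list, 16 fell and 1 rose by limma, the list median was -0.46, and 8 were constant and lower, including the receptor. Ppara was at 36.9, 37.5 and 37.1 RPKM in WT and 22.99, 25.4 and 23.2 RPKM in KO at CT0, and 56.6, 62.7 and 64.9 RPKM in WT and 24.6, 28.04 and 36.1 RPKM in KO at CT12. KO samples lay between 23.0 and 36.1 RPKM, and all were below the WT samples of their time, which were higher at CT12. The difference was -0.62 at CT0 and -1.04 at CT12, close to the limit of the rule.

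Enzymes of fat oxidation followed. The peroxisomal thiolases Acaa1b and Acaa1a differed by -1.32 ± 0.17 and -0.88 ± 0.11, and are close paralogs. In mitochondria, Cpt1a, which brings fatty acids in, was at 50.6, 60.6 and 63.1 RPKM in WT and 29.9, 42.6 and 34.8 RPKM in KO at CT0, and 108, 92.2 and 116 RPKM in WT and 63.7, 72.3 and 85.1 RPKM in KO at CT12. Its KO samples lay below the WT samples of the same time, with a difference of -0.60 ± 0.10. The difference of Acadl, the long-chain acyl-CoA dehydrogenase, was -0.45 ± 0.09. Fabp1, the liver fatty acid binding protein, was at 4127, 3971 and 3708 RPKM in WT and 1814, 2841 and 1198 RPKM in KO at CT0, and 5242, 5371 and 6457 RPKM in WT and 1828, 3027 and 3695 RPKM in KO at CT12, a wide range within KO with no overlap with WT, and differed by -1.07 ± 0.20. Vnn1, the pantetheinase vanin, had the closest match between times among constant genes of size 1 or more, -1.30 and -1.30. Its samples were spread, at 5.02, 10.4 and 11.7 against 2.17, 4.39 and 2.46 RPKM at CT0 and 14.6, 10.2 and 21.4 against 2.93, 5.81 and 8.75 RPKM at CT12 (WT against KO), so that the 95% interval of the change between times ran from -1.16 to 1.14. Retsat, retinol saturase, also matched closely, at -1.20 and -1.19.

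**Figure D3:**
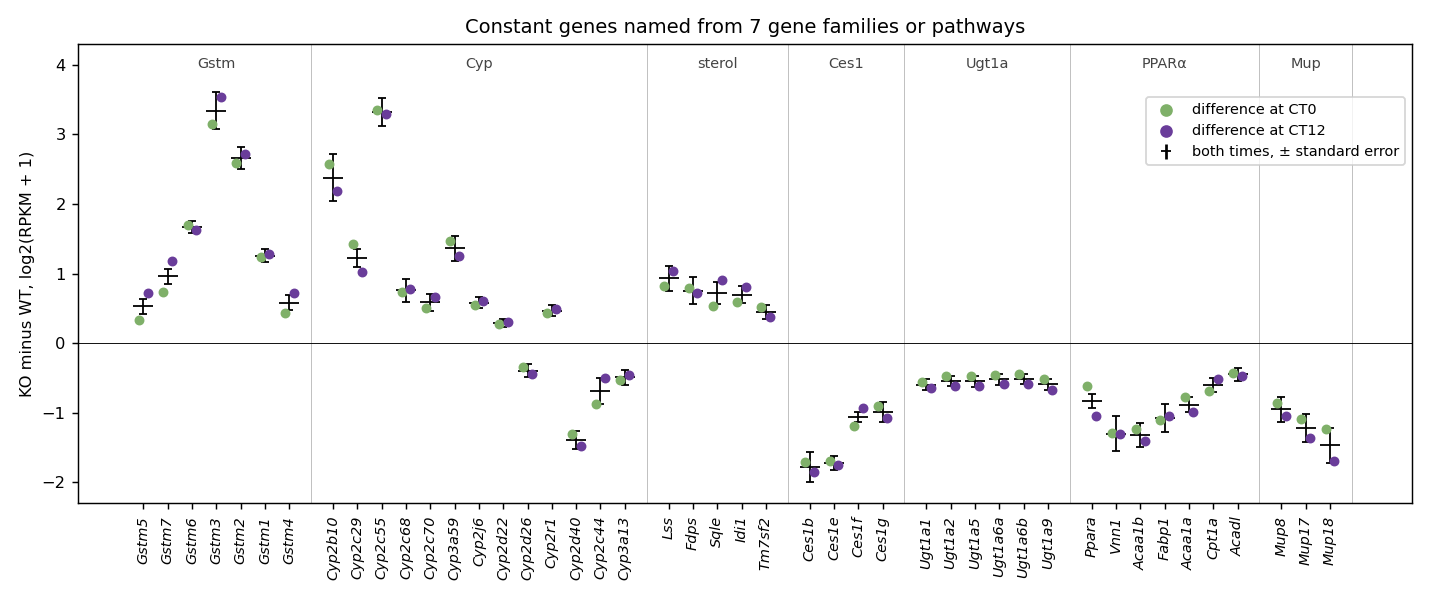
KO minus WT difference of log2(RPKM + 1) for constant genes named from 7 families or pathways. Green points are the CT0 and purple points the CT12 difference, and black bars the difference over both times with its standard error. All Gstm and sterol genes shown lie above 0, the P450 genes on both sides, and the Ces1, Ugt1a, PPAR-alpha and Mup genes below 0.

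Among 31 tested liver-enriched transcription factors, 4 were constant, all lower, and limma called none higher and 5 lower. Besides Ppara these were Nr1i3, Pparg and Cebpa. Nr1i3, the gene of the receptor CAR, was at 59.3, 88.5 and 87.4 RPKM in WT and 38.2, 56.6 and 49.4 RPKM in KO at CT0, and 121, 117 and 147 RPKM in WT and 56.8, 68.02 and 92.1 RPKM in KO at CT12, lower in all KO samples than in the WT samples of the same time. It differed by -0.76 ± 0.14, opposite in direction to Cyp2b10. Pparg, the fat-storage relative of Ppara, differed by -0.60 ± 0.14 and Cebpa, a factor of hepatocyte identity, by -0.34 ± 0.07. 

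Some secreted proteins of hepatocytes were constant and lower in KO, while others, such as Apoh, Apoc3 and Apoa2 above, were higher. Alb (ENSMUSG00000029368, chr5:90889915-90905629), serum albumin and the most abundant transcript in every sample, was at 37868, 37562 and 32747 RPKM in WT and 18465, 21242 and 17320.1 RPKM in KO at CT0, and 34269, 26609 and 31843 RPKM in WT and 14012, 14227 and 16366 RPKM in KO at CT12. Every KO sample, at most 21242 RPKM, lay below every WT sample, at least 26609 RPKM. The ratio of WT to KO means was 1.98 and the difference -0.99 ± 0.09. Quantile normalization gives the top gene of every sample the same value, which leaves no difference for Alb. Of 11 hepatocyte markers tested, limma called Alb alone, lower, and Ahsg, fetuin-A, was constant and higher by 0.24. The summed RPKM of the hepatocyte markers, Alb included, was 48293 to 62739 in WT and 38626 to 47820 in KO. Alb carried this gap. At CT0 the mean sum was 60414 RPKM in WT and 42813 RPKM in KO, of which Alb gave 36059 and 19009 RPKM. At CT12 the mean sum was 53365 and 40645 RPKM, of which Alb gave 30907 and 14868 RPKM. The list median of the genotype difference was -0.02.

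Major urinary proteins, carriers of pheromones, had 3 constant members of 19 tested, all lower, with 10 limma calls lower and none higher and a list median of -1.03. Mup18 was at 88.8, 78.7 and 130.4 RPKM in WT and 47.9, 34.1 and 40.6 RPKM in KO at CT0, and 185, 272 and 86.8 RPKM in WT and 52.5, 66.9 and 34.9 RPKM in KO at CT12, Mup17 differed by -1.23 ± 0.20 and Mup8 by -0.95 ± 0.18. The Mup genes are near-identical copies and their reads are not separable with certainty. Saa4, the constitutive serum amyloid A, was at 98.8, 63.8 and 69.96 against 20.04, 31.1 and 22.8 RPKM at CT0 and 106, 107 and 117 against 44.4, 50.3 and 42.5 RPKM at CT12 (WT against KO), a difference of -1.43 ± 0.13, and was the single constant gene of 26 acute phase genes. Tff3, a secreted trefoil peptide, differed by -1.73 ± 0.33 with a wide spread within groups, and Slc16a5, of the monocarboxylate transporter family, by -1.43 ± 0.25. Tff3 was at 9.34, 7.47 and 22.3 against 1.91, 1.42 and 4.95 RPKM at CT0 and 7.797, 12.02 and 2.57 against 1.41, 1.99 and 1.04 RPKM at CT12, and WT and KO samples did not overlap within either time, though the highest KO sample at CT0 was above the lowest WT sample at CT12.

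Of 24 tested sulfo- and glucuronosyltransferases, 3 were constant and higher and 7 lower. The 7 were Sult1a1, a phenol sulfotransferase, at -0.71, and 6 Ugt1a genes between -0.60 and -0.52. In all, 9 Ugt1a symbols in a row were constant and lower (chr1:89951963-90115572, NCBIM37). They share their last exons, so their rows hold many of the same reads and are read here as 1 observation. Ugt1a1, the bilirubin-conjugating enzyme, was at 318, 404 and 423 against 243, 268 and 264 RPKM at CT0 and 461, 416 and 427 against 268, 255 and 312 RPKM at CT12 (WT against KO). Higher were Sult1b1, Ugt2b36 and Ugt3a2, at 0.48, 0.29 and 0.27.

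Among 23 transporters, Slco1a4, an organic anion importer, was at 43.7, 49.1 and 43 against 73.9, 75.5 and 106 RPKM at CT0 and 83.4, 69.2 and 55.7 against 125, 90.1 and 128 RPKM at CT12, a difference of 0.79 ± 0.13. The sterol exporter subunit Abcg5 and Slc22a18 differed by 0.33 and 0.32, and Abcc2, which exports conjugates into bile, by -0.33. Of 23 NRF2 targets, Hmox1, heme oxygenase, differed by 0.48 ± 0.09, the peroxidase Prdx1 by 0.22 and the superoxide dismutase Sod1 by -0.23. Limma called 2 of that list higher and 1 lower.

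Of 23 tested female-biased liver genes, Gstm3, Cyp2b10 and Ntrk2, described above, were constant and higher, and limma called 7 higher and 5 lower. Of 25 male-biased genes none was constant, with 1 called higher and 3 lower. Ddit4, a stress-induced inhibitor of mTORC1, was the constant gene of 20 in the p53 and cell cycle list, at 1.602, 2.06 and 1.86 against 7.29, 2.29 and 5.07 RPKM at CT0 and 2.32, 1.697 and 3.23 against 6.34, 4.62 and 8.43 RPKM at CT12. Herpud1, of endoplasmic reticulum protein degradation, was the one of 18 in the ATF4 and endoplasmic reticulum stress list, at 110.0, 67.9 and 83.4 against 54.8, 50.9 and 46.2 RPKM at CT0 and 269, 222 and 277 against 153, 119 and 204 RPKM at CT12. Of the pericentral list of 21, Oat, Lect2 (at 0.56) and Nr1i3 were constant, and of the periportal list of 20, Ass1, Spp1 and the arginine transporter Slc7a2 (at -0.35). No constant gene stood in the lists of growth hormone signalling (17 tested), thyroid hormone handling (10), heat shock (16), interferon response (25) or handling stress (8). At the share of 6.42% over all tested genes, lists of this size, and the male-biased list, would hold few or none. Limma called 2 genes higher and 1 lower in the thyroid list, 1 lower in the heat shock list and none in the others.

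**Figure D4:**
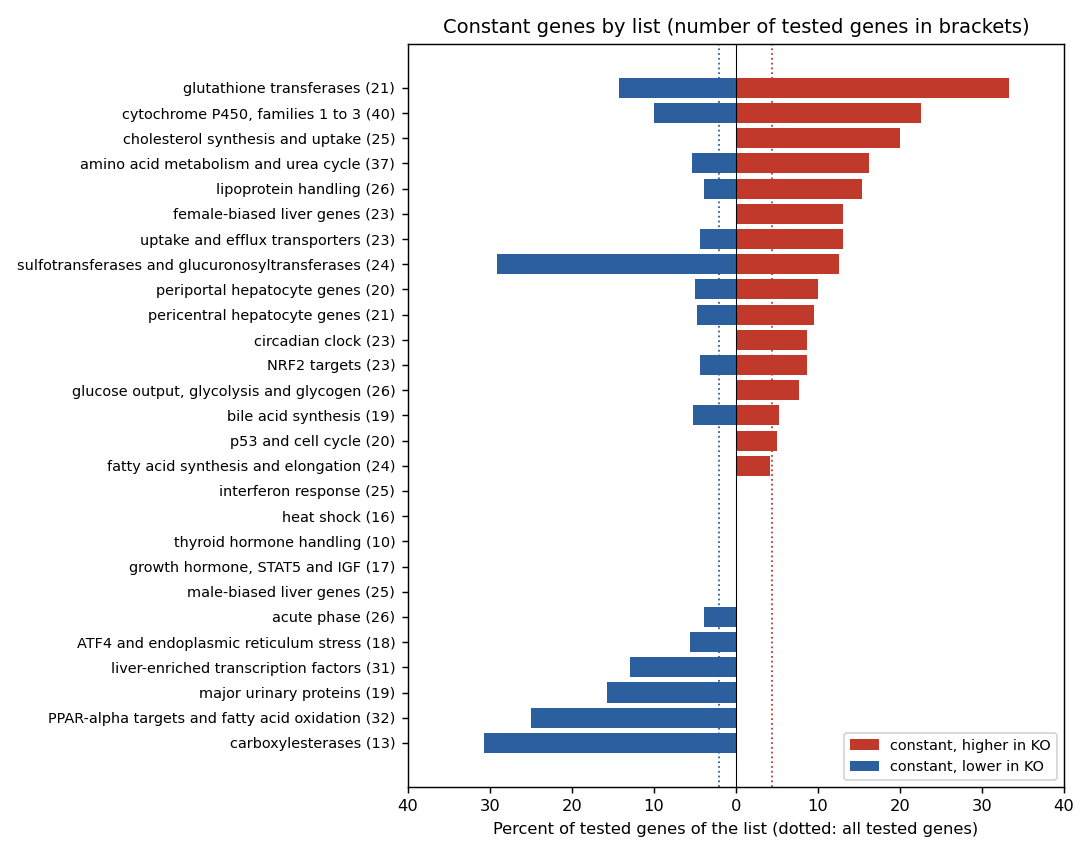
Percent of the tested genes of each list that were constant and higher (right) or lower (left) in KO, for lists with at least 10 tested genes other than cell type markers. Dotted lines mark all tested genes, 4.37% higher and 2.05% lower. Glutathione transferases reach furthest on the right and carboxylesterases on the left, and 6 of the 7 sulfo- and glucuronosyltransferases on the left are Ugt1a rows that share reads.

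Markers of other cell types were examined beside these results. The constant genes S100a8 and Elane belong to the neutrophil list. S100a8, a calprotectin subunit, was at 41.2, 19.6 and 10.7 RPKM in WT and 65.9, 43.7 and 84.3 RPKM in KO at CT0, and 2.69, 1.91 and 3.04 RPKM in WT and 18.8, 10.02 and 6.53 RPKM in KO at CT12. KO exceeded WT within each time while levels within each genotype were lower at CT12, and it differed by 1.65 ± 0.30. Elane, neutrophil elastase, was near the detection limit, at 1.09, 0.457 and 0.836 against 2.188, 1.15 and 2.37 RPKM at CT0 and 0, 0 and 0.324 against 0.754, 0.657 and 0.398 RPKM at CT12 (WT against KO). Of 9 tested neutrophil markers, limma called 6 higher and none lower, and the list median was 1.03. The summed level of the list was 34.0 to 118 RPKM in WT and 107 to 231 RPKM in KO at CT0, and 6.98 to 9.84 RPKM in WT and 19.6 to 48.2 RPKM in KO at CT12.

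Spp1, osteopontin, which cholangiocytes also express, was at 45.99, 61.5 and 48.6 against 90.7, 148 and 117 RPKM at CT0 and 32.5, 47.7 and 26.5 against 121, 106 and 87.03 RPKM at CT12. It was the single call among 7 tested cholangiocyte markers. The summed level of that list, Spp1 included, overlapped at CT0, with 310 to 397 RPKM in WT and 254 to 373 RPKM in KO. At CT12 it did not overlap, with 161 to 236 RPKM in WT and 259 to 260 RPKM in KO. None of the 13 Kupffer cell, 16 endothelial and 14 stellate cell markers tested was called or constant. The summed Kupffer cell and endothelial levels overlapped between genotypes at both times. The stellate cell and fibroblast sum overlapped at CT0, but at CT12 it was 151 to 179 RPKM in WT and 190 to 249 RPKM in KO. Of 11 exocrine pancreas markers 6 were at 0 in all samples, and the sum of the list was 3.72 to 11.9 RPKM in WT and 14.1 to 22.8 RPKM in KO, with Cela1 the single tested and called marker. No lymphocyte, erythroid, adipocyte or muscle marker was constant. Of 6 tested erythroid markers limma called 1, Alas2, lower. The erythroid sum overlapped between genotypes at CT0, but at CT12 it was 112 to 195 RPKM in WT and 255 to 313 RPKM in KO. The part of cell composition in the other constant genes was not tested.

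The rule had not used the difference between CT12 and CT0 itself. Constant genes were, however, more abundant and tighter within groups than tested genes, and their genotype differences at the 2 times were held within 0.5. These traits bear on how readily a time difference is called, so the share called is not independent of the rule. Over all tested genes limma called 1541, or 14.3%, between CT12 and CT0, with 5.19% higher and 980 genes lower at CT12. Of the constant genes 148, or 21.4%, were called. The direction differed with the genotype difference. Of the 93 called among genes higher in KO, 10 were higher and 83 lower at CT12, while of the 55 called among genes lower in KO, 42 were higher and 13 lower at CT12. The remaining constant genes, most of each group, had no called time difference. After quantile normalization the same genes gave 20 higher and 73 lower at CT12 among the 93 called above WT, and 49 higher and 9 lower among the 58 called below WT. The 2 groups were not tested against each other.

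Examples came from several pathways. Grk5 differed between CT12 and CT0 by -1.24 ± 0.12 on the log2 scale (limma adjusted p = 0.00011), and was lower at CT12 in each genotype. Kynu, at -0.59 (adjusted p = 0.0028), and Hmox1, at -0.73 (adjusted p = 0.00054), fell from CT0 to CT12 likewise. On the other side Herpud1 rose by 1.58 ± 0.14 (limma adjusted p = 6.8e-05), Cpt1a by 0.94 (adjusted p = 0.00028) and Ppara by 0.49 (adjusted p = 0.0081). Genes against this pattern were fewer, among them Slco1a4 and Abcg5, higher in KO and higher at CT12 by 0.51 and 0.54. The 9 constant genes with a called time difference of at least 1 in size, chosen after their values were seen, were S100a8, Grk5, Fam129b and Tmie, lower at CT12, and Tsc22d3, Il6ra, Herpud1, St3gal5 and Mcm10, higher.

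**Figure D5:**
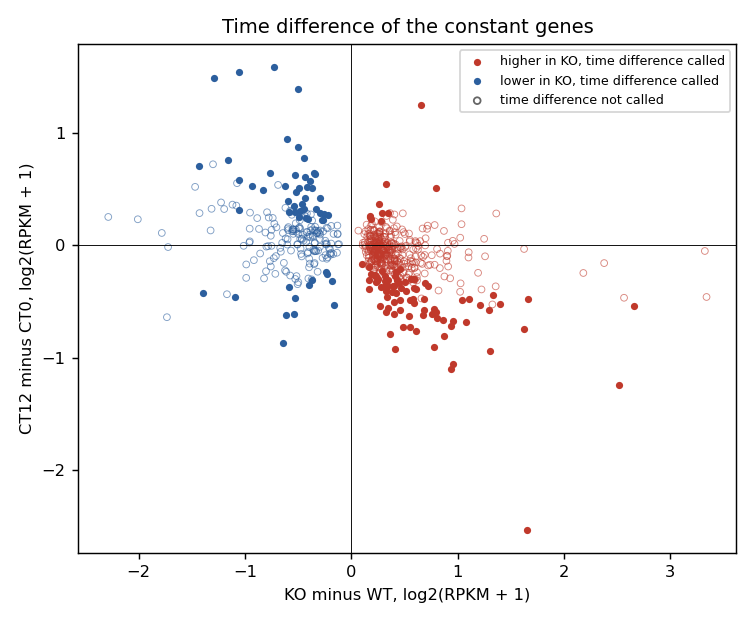
CT12 minus CT0 difference (vertical) against KO minus WT difference (horizontal) of log2(RPKM + 1) for the 693 constant genes. Filled points are the 148 with a called time difference (limma adjusted p under 0.05). Among genes higher in KO (red) 83 of 93 called genes lie below 0, and among those lower in KO (blue) 42 of 55 lie above 0.

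How well the equality of the differences was measured varied. The median distance between the CT0 and CT12 differences of constant genes was 0.13, but the median 95% interval reached 0.34 to each side. For 360 of the 693 genes the whole interval lay within 0.5 on either side of 0. For the rest it reached beyond 0.5, so a larger distance stays possible. In some of these the interval did not include 0, as in Ppara (-0.79 to -0.06), Gstm7 (0.04 to 0.87) and Slc7a2 (-0.68 to -0.08). Such genes met the rule, but their differences at the 2 times need not be equal. The limma interaction was called in 1.49% of tested genes and in none of the constant genes, where the rule had removed large distances. The difference was larger in size at CT12 than at CT0 in 485 constant genes, or 70.0%, against 59.3% of all tested genes. The genotype separation also held over both times together, with all 6 KO samples on one side of all 6 WT samples, in 371 of the 693, 254 higher and 117 lower.

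Constant genes were more abundant and tighter than tested genes as a whole. Their median mean level was 17.3 RPKM against 6.71 RPKM, 148 of them exceeded 100 RPKM against 627 of all tested genes, and their median standard deviation within groups was 0.129 against 0.163 on the log2 scale. A rule of complete separation selects for this. An annotated transcript was found for 674 of them, all protein-coding. The row kept was a transcript under 1000 bases in 182 genes, and 363 had more than 1 row.

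Promoter windows of RefSeq (GRCm38.p6, from 250 bases before to 50 after the start, both strands searched) were found for 350 of the 472 genes higher and 163 of the 221 lower in KO, and for 7819 tested genes. The E-box CACGTG, shown in the Cry1 run above, was in 7.15% of all 32851 windows, 12.0% of tested genes, 13.1% of constant genes higher and 8.59% of those lower in KO. The D-box TTATGTAA was in 0.938% of all windows and 61 tested genes (0.78%). It was in no window of a gene higher in KO and in 8 windows (4.91%) of genes lower in KO, which were Alb, Ces1b, Ces1e, Ces1g, 4931406C07Rik, Myo18a, Peli2 and Prnp. The Alb window held it at 2 places, 223 and 204 bases before the start, in opposite orientations. In Ces1b, Ces1e and Ces1g it began 84, 81 and 232 bases before the start, and these 3 genes are paralogs, so their matches are not independent.

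The other elements searched gave the following shares. TAGGTCA, bound by REV-ERB and ROR receptors, was in 2.61% of windows and 2.66% of tested genes, and in 3.14% of constant genes higher and 4.29% of those lower. The antioxidant element core TGACNNNGC was in 17.3% of tested genes, 16.9% of those higher and 19.6% of those lower, and the STAT element TTCNNNGAA in 8.45%, 8.00% and 4.29%. No test was made of these shares, and a match of letters does not show that a factor binds.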

How the data were processed

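The authors deposited 1 table of RPKM values per sample for 46585 Ensembl transcripts with gene symbols. The submitters' processing notes name TopHat2, bedtools 2.19.1 and mm9. The annotation release and the counting of multi-mapping reads are not given in the sources used here. Replicates were not pooled. Positions came from GENCODE vM1 (NCBIM37), which held 95.5% of the rows.

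For each of 22322 symbols the transcript with the highest mean RPKM was kept, and log2(RPKM + 1) was analysed with limma 3.58.1 in R 4.3.3 (trend in the prior variance, Benjamini-Hochberg adjustment over 10799 genes), with genotype and time as terms or, for the interaction, the 4 group means. The script was tested on simulated data. Depth came from the steps of RPKM times length, where 95.6% to 96.3% of low values lay within 0.05 of whole reads.

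The genes named are Arntl, the 12 largest rises and falls among constant genes, constant genes on the lists, the 5 closest matches between times with a size of at least 1, the 2 genes on each side of the limit, the 5 largest distances among genes separated at both times, and the Y-linked genes. Of these, 1 gene is not reported here. The constant genes, lists and motifs were chosen with earlier results of these data known. Alternatives were another pseudocount, filter, normalization, row choice, limit or model, array weights, a replicate block and leaving out each sample.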

Additional observations from a re-analysis of the deposited data

Results flagged for a closer look

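In 6 genes named above or by the same rule the genotype difference itself differed between CT0 and CT12 by the limma interaction, so that none of them was constant. Arntl changed by 2.50 from CT0 to CT12 (limma adjusted p = 7.2e-05), with opposite signs at the 2 times. The other 5 are the genes with the largest distance among those separated in the same direction at both times, so their interaction was chosen for its size. Insig2, which restrains sterol synthesis and was read from a transcript of 204 bases, was at 173, 171 and 205 against 229, 232 and 286 RPKM at CT0 and 18.5, 14.02 and 28.1 against 152, 184 and 281 RPKM at CT12 (WT against KO), an interaction of 2.85 (limma adjusted p = 0.0019). Spon2 was at 6.01, 8.63 and 7.06 against 12.6, 12.4 and 11.3 RPKM at CT0 and 0.527, 0.7001 and 0.6 against 6.2, 10.9 and 14.1 RPKM at CT12, an interaction of 2.08 (adjusted p = 0.0055). Cyp2a5, a coumarin hydroxylase, was at 88.6, 142 and 114 against 55.1, 32.6 and 47.6 RPKM at CT0 and 879, 622 and 745 against 52.7, 48.5 and 45.9 RPKM at CT12, an interaction of -2.56 (adjusted p = 0.0011), and its paralog Cyp2a4, whose reads may be shared, had -2.50 (adjusted p = 0.0019). D0H4S114 had -2.24 (adjusted p = 0.012).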

How the results depend on the processing

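The constant genes numbered 602 to 773 under another pseudocount, filter, row choice, normalization or limit of 1, and 556 under a limit of 0.25. A size of at least 1 left 147 genotype calls, 58 constant genes, 21 of them with a time call, and 27 interaction calls. Separation over both times together, chosen after seeing the data, left 371 constant genes and 27 with a time call. After quantile normalization 51.8% of 1036 genotype calls were higher in KO against 63.4% of 1034.

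Leaving out each sample gave 734 (without WT CT12 replicate 3) to 1068 genotype calls and 784 to 930 constant genes, more because fewer samples must be separated. Of the 693, 667 to 683 were kept. Separation cannot be lost by leaving out a sample, so only the limit or the filter could remove a gene, and nothing is read from this count. Time calls among constant genes were 124 to 220 and interaction calls 87 (without WT CT0 replicate 2) to 146, against 161. Same-numbered replicates did not deviate together (mean correlation 0.00825, 2 of 18 pairs above 0.1). With the replicate block there were 914 genotype calls, 137 time calls among constant genes and 128 interaction calls.

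Of 2109 values of 106 named constant genes under the alternatives none reversed and 15 moved beyond the replicate spread, none of them by leaving out a sample. Genes near 1 RPKM, such as Elane, Ntrk2 and Nat8, are limited by depth, and KO libraries at CT0 were shallower than WT libraries at CT0.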
